A study of Mus musculus with 19 samples.

Results

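The epithelial membrane protein genes Emp1, Emp2 and Emp3, their relative Pmp22, and the tetraspanin genes Tspan1 and Tspan8 were followed through 19 mouse libraries of polyadenylated RNA. These 6 genes were named individually, and all 6 were found by Entrez Gene ID among the 36528 IDs of the tables. The control mice carried SpcCreERT2, a tamoxifen-activated Cre recombinase made where the surfactant protein C promoter is active, together with the RosatdTomato reporter. The Etv5KO mice carried both of these and, in addition, a knockout allele and a loxP-flanked allele of Etv5, which encodes an ETS family transcription factor. Every mouse of both genotypes was given tamoxifen (100 mg/kg, 5 days of injection) and was left for another 5 days. Their age and strain were not given. Alveolar type II (AT2) cells, the surfactant-secreting cells of the alveolus, were sorted by EpCAM and tdTomato and against CD45 and CD31, and gave 4 control and 5 Etv5KO libraries. Lung tissue gave 5 control and 5 Etv5KO libraries, and it holds many cells in which this Cre is not made and which keep the loxP-flanked allele. The labels do not say which libraries came from the same mouse.

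The EMP and PMP22 proteins form a small family of glycoproteins that cross the membrane several times and share a fold with the claudins. They have been linked to cell adhesion, cell shape and the delivery of integrins to the cell surface. EMP2 is widely used as a marker of alveolar type I (AT1) cells, the thin cells of gas exchange, which descend from AT2 cells in the adult lung. Tetraspanins are another family of membrane proteins, which gather integrins, proteases and immunoglobulin proteins into membrane microdomains and are abundant on extracellular vesicles. TSPAN1 and TSPAN8 are best known from secretory and glandular epithelia and from carcinomas.

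The 6 genes were selected on expression values of these libraries, with the genotype comparison in AT2 cells already known. Their values in that comparison, and in the difference between tissues that contains it, are therefore given as a description, with no p-value. The number of the 6 past the threshold is printed there beside the share of all genes, and nothing is read from it. The tests in lung and between control tissues used other contrasts but were also not blind to these data. The control tissue contrast shares its 4 control AT2 libraries with the known comparison. A low value in these libraries moves a gene up in the known comparison and down in AT2 cells against lung.

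Total counts per library lay between 14971793 and 28671262. Etv5 was at 626 to 725 CPM (counts scaled to library size) in control AT2 libraries and 619.5 to 765 CPM in Etv5KO AT2 libraries, and at 92.3 to 111 and 94.3 to 119.6 CPM in control and Etv5KO lung. It was thus not lower in the libraries labelled Etv5KO; counts over whole gene models do not show deleted exons, and each direction below compares labels. The 13 AT2 markers summed to 180844 to 278419 CPM in control AT2 libraries and 27141 to 34821 CPM in control lung, and the 12 endothelial markers to 319 to 392 and 6150 to 7689 CPM. On the second principal component of the AT2 libraries, AT2_control 2 had a score of −41.1 and the other controls −1.69 to 8.18. On the first component of the lung libraries, lung_control 1 had a score of −29.4 and the other controls 10.4 to 21.3. All CPM values are scaled by TMM, edgeR's library scaling, over the 19 libraries, and changes are log2 fold changes of Etv5KO over control unless another pair is named.

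All 6 genes were higher in AT2 cells of Etv5KO mice than in control AT2 cells. Emp1 was 4.07-fold and Tspan1 3.87-fold higher, and Pmp22, Emp3, Emp2 and Tspan8 between 1.49-fold and 1.70-fold higher. Of the 6 genes, 5 were past an adjusted p of 0.05 in the edgeR fit across all genes, all of them higher, and Emp3 was not; 9.87% of the 14939 genes tested were past it. Over all genes tested, 5.03% were past it and higher and 4.84% past it and lower (65% of the calls were higher with library size as the only scaling, 50.9% with TMM). The same 5 had no overlap between the groups' libraries, as had 12.1% of all genes tested, 6.39% higher and 5.72% lower. Nothing is read from these shares, since this contrast was known when the genes were proposed. The median log2 fold change of the 6 was 0.73, beside −0.01 for all genes tested. In bulk RNA, more cells of a kind and more RNA per cell cannot be told apart.

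**Figure D1:**
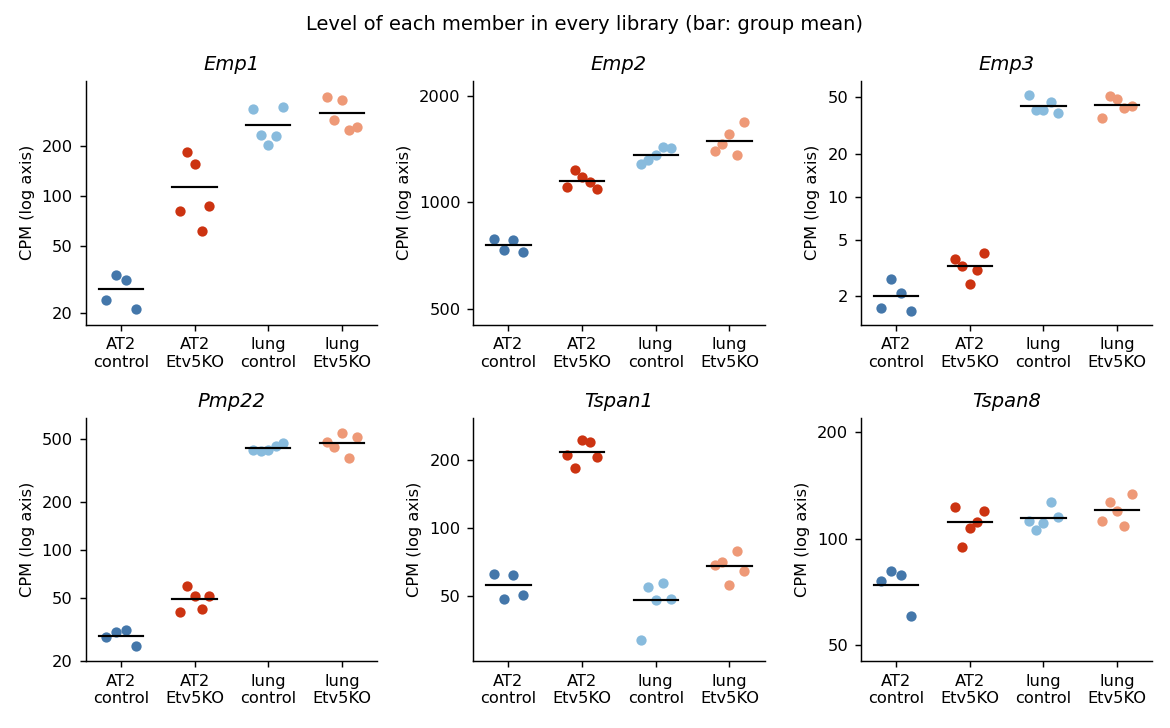
Level of each gene in every library, in CPM on a log axis whose range differs between panels; points are libraries, bars are group means, and the groups are AT2 cells and lung of control and Etv5KO mice. For Emp1, Emp2, Pmp22, Tspan1 and Tspan8 all 5 Etv5KO AT2 libraries sit above all 4 control AT2 libraries, while the lung groups overlap for all 6 genes. Of all genes tested, 6.39% are higher without overlap in AT2 cells, and 1.57% have no overlap in lung.

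Emp1 (Entrez Gene 13730, chromosome 6), first described as a tumour-associated membrane protein, stood at 23.9, 33.9, 31.5 and 21.2 CPM in the control AT2 libraries 1 to 4. In the Etv5KO AT2 libraries 1 to 5 it stood at 81.3, 182, 155, 61.4 and 87.5 CPM. Every Etv5KO library was above every control, and libraries AT2_Etv5KO 2 and AT2_Etv5KO 3 were well above the other Etv5KO libraries. The group means were 27.6 ± 6.01 CPM (SD, n = 4) and 114 ± 52.2 CPM (SD, n = 5). This was a log2 fold change of 2.02 (SE 0.31, 95% interval 1.35 to 2.69), the value of rank 20 from the top among the 14939 genes tested. Leaving out AT2_Etv5KO 2 gave 1.79.

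Emp1 has 2 promoter windows in RefSeq, and the first is shown because it held a pair of matches to TGANTCA. These letters are a loose form of the AP-1 factor site, in which N is any base. The pair read TGAGTCA and TGATTCA, and how well AP-1 factors bind each was not tested. Windows run from 250 bases before to 50 after a RefSeq transcription start, and both strands were searched. The matches, in capitals, began 145 and 25 bases before the start, in chr6:135362681-135362980 of the GRCm38.p6 assembly, plus strand:
Emp1: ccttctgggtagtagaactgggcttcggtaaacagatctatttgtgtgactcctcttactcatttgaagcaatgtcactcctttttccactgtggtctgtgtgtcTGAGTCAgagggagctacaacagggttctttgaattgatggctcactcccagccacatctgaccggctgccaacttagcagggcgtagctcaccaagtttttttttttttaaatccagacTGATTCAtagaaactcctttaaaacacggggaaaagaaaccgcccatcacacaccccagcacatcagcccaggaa
The other window of Emp1, at chr6:135367243-135367542, held no match. At least 1 match occurred in 7.79% of 32544 RefSeq promoter windows of that length, and at least 2 in 0.464%. Besides TGANTCA, the 11 windows of the 6 genes were searched for the letters AGGAAG, which ETS factors bind. The letters CCGGAA, another core bound by ETS factors, and the TEAD factor core GGAATG were searched as well. The motifs were chosen with the expression values known. Overlapping matches were counted separately, and the ETS and TEAD motifs share some letters. AGGAAG was found in none of the 11 windows (35.1% of all windows hold it), CCGGAA in 1 window of Pmp22 (15%) and GGAATG in another window of Pmp22 (14.6%). A match is a description of the letters, and its absence says only that they are not in this window.

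Tspan1 (Entrez Gene 66805, chromosome 4), the tetraspanin with the largest difference, stood at 62.6, 48.7, 62.0 and 50.4 CPM in the control AT2 libraries and at 211, 186, 247, 239.9 and 206 CPM in the Etv5KO AT2 libraries. The lowest Etv5KO library was well clear of the highest control, and the Etv5KO libraries lay close together, unlike those of Emp1. The means were 55.9 ± 7.38 CPM (SD, n = 4) and 218 ± 25.3 CPM (SD, n = 5), a log2 fold change of 1.95 (SE 0.11, 95% interval 1.72 to 2.19), of rank 27 from the top. With a fold change close to that of Emp1, its coefficient of variation among Etv5KO libraries was 11.6%, against 46.0% for Emp1. Its single promoter window is shown for comparison with that of Emp1. It lies at chr4:116167549-116167848 of GRCm38.p6, minus strand, and held none of the letters searched, so no base is in capitals:
Tspan1: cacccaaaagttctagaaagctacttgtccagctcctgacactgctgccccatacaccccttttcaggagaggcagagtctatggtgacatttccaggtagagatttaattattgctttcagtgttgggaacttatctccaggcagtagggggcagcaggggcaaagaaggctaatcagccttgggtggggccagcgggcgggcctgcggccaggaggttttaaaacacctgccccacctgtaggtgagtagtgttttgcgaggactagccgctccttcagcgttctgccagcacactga

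Tspan8 (Entrez Gene 216350, chromosome 10), a tetraspanin of digestive-tract epithelia and of exosomes, stood at 76.0, 80.9, 79.0 and 60.4 CPM in control AT2 libraries. It stood at 123, 94.6, 107, 112 and 120.2 CPM in Etv5KO AT2 libraries. The groups did not overlap, and AT2_control 4 was the lowest of all. The groups differed by a log2 of 0.58 (SE 0.10, 95% interval 0.35 to 0.81). An antisense gene overlaps Tspan8 in the GENCODE annotation, and whether counting used strand is not given, so reads from it cannot be told apart from those of Tspan8.

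Emp2 (Entrez Gene 13731, chromosome 16) was the most abundant of the 6 in CPM and per gene length in every group. It stood at 788, 733, 783 and 720.3 CPM in control AT2 libraries and 1101, 1232, 1174, 1142 and 1089 CPM in Etv5KO AT2 libraries. The spread within each group was small, with coefficients of variation of 4.53% and 5.04%, and the groups did not overlap. Its log2 fold change was 0.59 (SE 0.07, 95% interval 0.44 to 0.74).

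Pmp22 (Entrez Gene 18858, chromosome 11), the myelin protein of peripheral nerve that was also found as a growth-arrest gene of fibroblasts, was low in AT2 cells. It stood at 28.2, 30.2, 31.2 and 24.7 CPM in controls and 40.4, 59.0, 51.1, 42.4 and 51.2 CPM in Etv5KO. The Etv5KO libraries were all above the controls, with AT2_Etv5KO 2 the highest, as it was for Emp1 and Emp2. As a log2 fold change this was 0.76 (SE 0.11, 95% interval 0.51 to 1.01). Pmp22 has 4 promoter windows in RefSeq. The window at chr11:63131207-63131506 of GRCm38.p6, plus strand, is shown because it held the sole match to CCGGAA among the windows of the 6 genes, on the opposite strand, in capitals:
Pmp22: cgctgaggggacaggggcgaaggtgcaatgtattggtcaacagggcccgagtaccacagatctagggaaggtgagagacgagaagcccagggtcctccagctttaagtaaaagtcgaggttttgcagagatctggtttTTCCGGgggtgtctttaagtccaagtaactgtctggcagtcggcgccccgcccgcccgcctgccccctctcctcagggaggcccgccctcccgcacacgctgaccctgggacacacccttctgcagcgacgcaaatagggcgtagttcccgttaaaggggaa

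Emp3 (Entrez Gene 13732, chromosome 7), which is expressed in blood leukocytes among other cells, was the lowest of the 6 in AT2 cells. Its counts were 27 to 55 in control and 52 to 77 in Etv5KO AT2 libraries. In CPM it stood at 1.64, 2.65, 2.11 and 1.58 in controls and 3.68, 3.23, 2.44, 3.07 and 4.002 in Etv5KO. Library AT2_Etv5KO 3 lay below AT2_control 2, so the groups overlapped. The difference was, on the log2 scale, 0.69 (SE 0.21, 95% interval 0.23 to 1.15).

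The summed levels of genes listed as markers of other epithelial cells were also higher in Etv5KO AT2 libraries, though not of every marker. Some of these genes are not low in AT2 cells. Between control AT2 cells and control lung, 3 AT1 markers passed as higher in AT2 cells and 10 as lower. For airway secretory markers these counts were 5 and 4, and for ciliated markers 0 and 8. Of all genes tested between these control tissues, 35.6% passed as higher in AT2 cells and 38.9% as lower. The 14 AT1 markers, a list without Emp2, were all detected and summed to 4430 to 5188 CPM in controls and 6441 to 6870 CPM in Etv5KO. The 10 airway secretory markers summed to 4728 to 7000 CPM in controls and 8029 to 9998 CPM in Etv5KO, and the 9 ciliated cell markers to 113 to 134 and 175 to 230.1 CPM. These sums did not overlap between genotypes. With edgeR, 6 of the 14 AT1 markers passed as higher and 1, Aqp5 (log2 −0.30, adjusted p 0.0254), as lower, and 7 did not pass. Among the 7, Pdpn (log2 −0.67) and Igfbp2 (log2 −0.27) were below 0. Of the 10 airway secretory markers 4 passed, and of 8 ciliated markers tested 2 passed, all higher. Among the airway secretory markers, Scgb1a1 (log2 0.18) and Scgb3a2 (log2 0.31) did not pass. Both, and the 3 AT1 genes, are named after their values were seen. The AT1 list shares Cav1 with the list of partner genes described below. The 14 transitional epithelial markers found among the IDs summed to 1232 to 1592 and 1580 to 2043 CPM, and these ranges overlapped. The overlap came from AT2_control 2, at 1592 CPM, and the next control, AT2_control 4, was at 1391 CPM. With edgeR, 6 of these 14 passed as higher, 1 as lower and 7 did not pass (median log2 0.41). Over all genes tested, 5.03% passed as higher and 4.84% as lower. The part of these other epithelial cells in the values of Emp1, Emp2, Tspan1 and Tspan8 was not tested. For Emp3 and Pmp22, the summed ranges in control and Etv5KO AT2 libraries were 319 to 392 and 303 to 389 CPM for endothelial markers, 59.2 to 92.7 and 65.8 to 128 CPM for the 12 mesenchymal markers, and 87.99 to 124 and 69.9 to 88.1 CPM for the 11 macrophage markers. All overlapped between genotypes, the macrophage sums only between 87.99 and 88.1 CPM, and none of their markers was at 0. Median log2 fold changes of the markers tested were 0.25 for endothelial, 0.48 for mesenchymal and 0.03 for macrophage markers. With edgeR, no mesenchymal marker passed, and each one tested had a log2 above 0. Of the macrophage markers, 1, Cd68 (log2 0.65), passed as higher and 1, Cd14 (log2 −1.11), as lower. The sole endothelial marker that passed was Esam, as lower (log2 −0.26, edgeR adjusted p 0.0168), and all the others had a log2 above 0. Between control tissues, Cd14 was higher in AT2 cells (log2 1.13). Esam had a log2 of −0.40 there, beside a median of −5.50 for the endothelial markers. Cd68, Cd14 and Esam are named after their values were seen. The part of endothelial, mesenchymal and macrophage cells in Emp3 and Pmp22 was not tested. The 6 Schwann cell markers summed to 119 to 125 CPM in control and 128 to 161 CPM in Etv5KO AT2 libraries, with no overlap, and Cdh19 was at 0 in the controls. Their part in the value of Pmp22 was not tested. The 10 lymphocyte markers summed to 25.7 to 45.9 and 42.1 to 57.6 CPM, which overlapped. The AT2 markers in Etv5KO libraries summed to 162582 to 215106 CPM, within and below the range of the controls. With edgeR, 0 of these 13 passed as higher, 4 passed as lower and 9 did not pass (median log2 −0.29), beside 5.03% higher and 4.84% lower of all genes tested.

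Without library AT2_control 2, which stood apart, all 6 log2 fold changes kept their sign: 2.14 for Emp1, 1.90 for Tspan1, 0.86 for Emp3, 0.79 for Pmp22, 0.63 for Tspan8 and 0.58 for Emp2.

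In whole lung, none of the 6 genes was past the threshold between genotypes with edgeR or DESeq2, and 1, Tspan1, had an unadjusted edgeR p under 0.05. The share of all genes with such an unadjusted p was not computed. Across all 17098 genes tested in lung, 0.415% were past the threshold, 0.205% higher and 0.211% lower (of the calls, 49.3% were higher with edgeR and 62.4% with DESeq2). All 6 fold changes were above 0, with a median log2 of 0.12 beside −0.01 for all genes. No member separated the 5 Etv5KO from the 5 control libraries, which 1.57% of all genes did, 0.947% higher and 0.62% lower.

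Tspan1 stood at 32.1, 54.7, 48.2, 57.3 and 48.6 CPM in the control lung libraries 1 to 5 and at 68.6, 71.2, 56.1, 79.1 and 64.6 CPM in the Etv5KO lung libraries. Of the 5 Etv5KO libraries, 4 were above every control, and library lung_control 1, the one apart on the first principal component, was the lowest. Its log2 fold change of 0.50 (SE 0.14, 95% interval 0.19 to 0.81) had an edgeR adjusted p of 0.307. Without lung_control 1 the log2 fold change was 0.38 and the edgeR adjusted p 0.149. Emp1 was variable in both lung groups, at 331, 231, 202, 228 and 339 CPM in controls and 389, 284, 377, 248 and 258 CPM in Etv5KO, with a log2 fold change of 0.23 (SE 0.17, 95% interval −0.15 to 0.61). The intervals of the others were −0.04 to 0.31 for Emp2, −0.09 to 0.30 for Pmp22, −0.08 to 0.23 for Tspan8 and −0.21 to 0.25 for Emp3, whose sign (log2 0.02) depended on the library left out. The edgeR adjusted p was 0.978 to 0.992 for these 4 genes and 0.978 for Emp1.

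**Figure D2:**
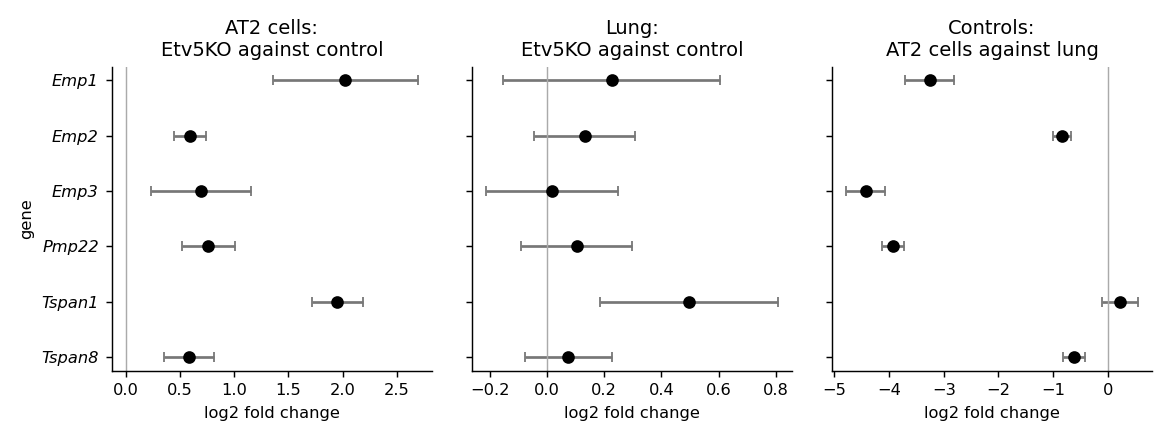
Log2 fold changes of the 6 genes with 95% intervals from edgeR, for Etv5KO against control in AT2 cells (4 and 5 libraries), the same in lung (5 and 5), and control AT2 cells against control lung (4 and 5); the horizontal scale differs between panels. In AT2 cells Emp1 (2.02) and Tspan1 (1.95) lie furthest from 0, and in lung only the interval of Tspan1 (0.19 to 0.81) does not include 0.

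The genotype effect in AT2 cells minus that in lung was 1.79 (SE 0.36) for Emp1, 1.44 (SE 0.19) for Tspan1, 0.65 (SE 0.22) for Emp3, 0.65 (SE 0.15) for Pmp22, 0.49 (SE 0.13) for Tspan8 and 0.45 (SE 0.10) for Emp2, on the log2 scale from a fit of all 19 libraries. Of the 6, 4 were past the threshold, all higher in AT2 cells, beside 1.59% of all 17698 genes tested, 0.791% higher and 0.802% lower; with edgeR, the 2 that were not were Emp3 and Tspan8. DESeq2 called 5. With edgeR, Tspan8 passed without AT2_control 2, AT2_Etv5KO 2 or lung_Etv5KO 5 and with both other scalings (RLE size factors, library size alone). Pmp22 did not pass without AT2_control 1, AT2_control 4 or lung_Etv5KO 2. Nothing is read from these counts, since the difference holds the contrast that was known. In controls, the AT2 level of Emp1 was 10.4% of the lung level, and in Etv5KO mice 36.5%. For Tspan1 these values were 116% and 321%, for Tspan8 64.8% and 92.6% and for Emp2 55.6% and 77.0%. For Pmp22 they were 6.50% and 10.3%, and for Emp3 4.57% and 7.44%.

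Between control AT2 cells and control lung, the 6 genes fell into 3 ranges. Emp3, Pmp22 and Emp1 were far lower in AT2 cells, Emp2 and Tspan8 were moderately lower, and Tspan1 did not pass. Of the 6, 5 were past the threshold with edgeR, all lower in AT2 cells. This is a contrast in which 74.5% of the 17118 genes tested were past it, 35.6% higher and 38.9% lower, and in which 66.3% had no overlap between the groups, 30.2% higher and 36.1% lower. Of the calls, 47.8% were higher with TMM and 25.9% with library size as the only scaling. Emp3 went from 43.6 ± 5.42 CPM (SD, n = 5) in lung to 2.00 ± 0.499 CPM (SD, n = 4) in AT2 cells (log2 −4.43, SE 0.16, edgeR adjusted p 3.5e-10). Pmp22 went from 439.8 ± 21.7 to 28.6 ± 2.84 CPM (log2 −3.93, SE 0.09, edgeR adjusted p 1.81e-11) and Emp1 from 266 ± 63.8 to 27.6 ± 6.01 CPM (log2 −3.26, SE 0.20, edgeR adjusted p 2.85e-08).

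Emp2 stood at 1282, 1316, 1356, 1428 and 1419.9 CPM in control lung, above all AT2 libraries of either genotype, and its log2 fold change of AT2 cells over lung was −0.84 (SE 0.08, edgeR adjusted p 8.08e-07). Tspan8 stood at 113, 106, 111, 127 and 115 CPM in control lung (log2 −0.62, SE 0.09, edgeR adjusted p 6.04e-05). Tspan1 had a log2 of 0.22 (SE 0.15, 95% interval −0.10 to 0.55, edgeR adjusted p 0.197). Scaled by library size alone, the median of all genes was −0.42, against −0.01 with TMM. The log2 of Tspan1 was then −0.19, the reverse sign but above that median, and the other 5 kept their direction.

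The order of the 6 genes was compared on the authors' size-factor-adjusted RPKM, which corrects for gene length. In control AT2 cells Emp2 led at 203 ± 7.53 RPKM (SD, n = 4), followed by Tspan8 (39.8 ± 4.85), Tspan1 (26.5 ± 3.28), Pmp22 (11.5 ± 1.08), Emp1 (8.06 ± 1.75) and Emp3 (1.94 ± 0.488). Each gene was above the next in all libraries compared across the group. Emp2 alone made up 69.9% of the summed RPKM of the 6 in this group. In Etv5KO AT2 cells Emp2 stood at 309.7 ± 15.6 RPKM (SD, n = 5), and Tspan1 was second at 103 ± 10.98, above Tspan8 at 60.03 ± 6.41 in all libraries. Emp1 came next, at 33.3 ± 15.3 RPKM, and its range overlapped with those of Tspan8 and of Pmp22 (19.7 ± 3.02). The share of Emp2 in the summed RPKM was 58.5%, that of Tspan1 went from 9.09% to 19.5% and that of Emp1 from 2.77% to 6.28%.

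In control lung the order was another. Emp2 (375 ± 18.5 RPKM) was followed by Pmp22 (181 ± 9.10), Emp1 (79.6 ± 18.9), Tspan8 (62.9 ± 4.58), Emp3 (43.4 ± 5.44) and Tspan1 (23.4 ± 4.83; SD, n = 5 each), and the ranges of Emp1 and Tspan8 overlapped. In Etv5KO lung the order was the same, with overlapping ranges for Emp3 and Tspan1 in place of Emp1 and Tspan8. Tspan1 was thus the least abundant of the 6 in lung and the third or second most abundant in AT2 cells.

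**Figure D3:**
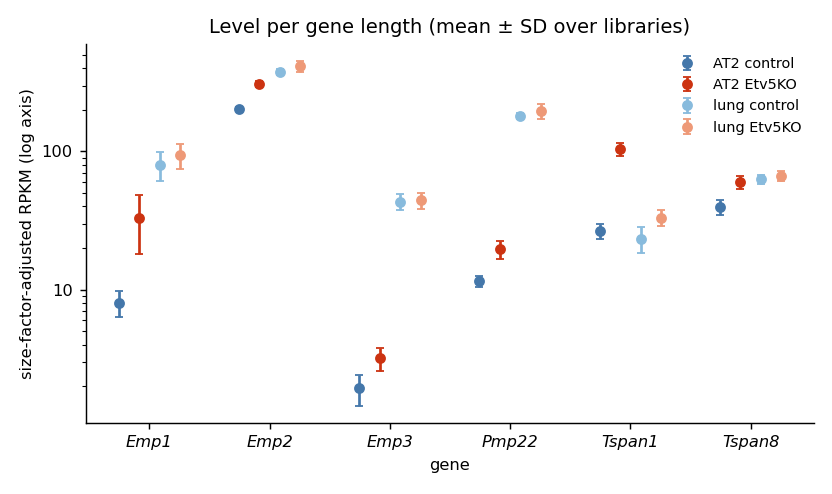
Mean size-factor-adjusted RPKM with SD over libraries for the 6 genes in each group (4 control and 5 Etv5KO AT2 libraries, 5 and 5 lung libraries), on a log axis. Emp2 is highest in every group, and Tspan1 moves from 26.5 RPKM in control AT2 cells to 103 RPKM in Etv5KO AT2 cells.

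Of 29 other tetraspanins listed, 25 could be tested in AT2 cells, and 2 rose, 1 fell and 22 did not pass with edgeR (median log2 0.11). These 3 of 25 stand beside 9.87% of all genes tested, and nothing particular to the list is read from them. Tspan2 rose from 233 ± 35.2 to 467 ± 100.1 CPM (log2 0.99, SE 0.15, edgeR adjusted p 0.00149). Tspan15, which directs the protease ADAM10 to particular substrates, rose from 112 ± 10.02 to 188 ± 7.44 CPM (log2 0.74, SE 0.07, edgeR adjusted p 7e-05). Tspan12, a part of the Norrin receptor complex in retinal vessels, fell from 136 ± 26.7 to 88.02 ± 15.6 CPM (log2 −0.64, SE 0.15, edgeR adjusted p 0.0207). Its call was lost without AT2_control 1 or 3 (edgeR adjusted p up to 0.0688). DESeq2, and edgeR on all 19 libraries in 1 fit, each called 5 of the list. Over all genes, DESeq2 called 969 higher and 891 lower of 14939 tested, and the joint fit 877 higher and 916 lower of 17698. An unadjusted edgeR p under 0.05 was found for 8 of the 25 in AT2 cells. In lung none of 27 tested passed with edgeR or DESeq2, and 3 had an unadjusted p under 0.05. The share of all genes with such an unadjusted p was not computed in either tissue, so nothing is read from these counts.

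The most abundant tetraspanin in AT2 cells was Cd9, at 339 ± 56.9 RPKM in controls and 454 ± 49.5 RPKM in Etv5KO, and it was not past the threshold (log2 fold change 0.41, SE 0.13; adjusted p 0.0659 with edgeR). CD9 and CD81 are the classical tetraspanins of the cell surface and of exosomes. In control AT2 cells Cd81 (182 ± 18.99 RPKM), the endosomal Cd63 (124 ± 19.5), Tspan11 (111 ± 26.6) and the integrin partner Cd151 (61.6 ± 4.95) came next, and none of these 4 passed between genotypes. Among 31 tetraspanins, Tspan8 had rank 10 and Tspan1 rank 13 in control AT2 cells on this scale, with 3.22% and 2.14% of the summed RPKM. In Etv5KO AT2 cells Tspan1 had rank 5, with 6.75%, and Tspan8 rank 8, with 3.92%.

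Across control tissues, 22 of 27 other tetraspanins tested passed, 5 higher and 17 lower in AT2 cells, in the contrast in which 74.5% of all genes tested passed. Tspan11 (log2 2.68) and Cd63 (log2 1.76) were among the 5 that were higher. Tspan7, at 723 ± 179 CPM in control lung, stood at 24.2 ± 2.64 CPM in control AT2 cells (log2 −4.89), and Tspan18, Tspan13, Upk1b and the leukocyte tetraspanin Cd37 had log2 values of −5.52, −5.09, −4.94 and −5.28. Tspan3 was also lower (−1.81). Beside these, the log2 values of Emp3, Pmp22 and Emp1 were −4.43, −3.93 and −3.26. Of the 16 other genes with the PMP22 fold, claudins left out, 3 could be tested in AT2 cells. Perp, a desmosome-linked p53 target, rose from 50.5 ± 5.76 to 64.1 ± 2.25 CPM (log2 0.33, SE 0.08, edgeR adjusted p 0.0216), a call lost without AT2_control 1, AT2_Etv5KO 1 or AT2_Etv5KO 4 (up to 0.0527) and with all 19 libraries in 1 fit (0.0768). Nkg7 and Tmem47 did not pass.

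Genes for proteins described as partners of tetraspanins or EMPs were also followed. Of 20 listed and tested in AT2 cells, 5 rose, 1 fell and 14 did not pass with edgeR (median log2 0.17), beside 5.03% higher and 4.84% lower of all genes tested. DESeq2 called 7 of the 20, beside 969 higher and 891 lower of all 14939 genes tested. Adam10, the cell-surface protease that several tetraspanins escort, rose from 116 ± 7.80 to 154 ± 7.04 CPM (log2 0.40, SE 0.07, edgeR adjusted p 0.00327). Itgb3, the integrin beta chain of the vitronectin receptor, rose from 5.84 ± 1.86 to 12.6 ± 2.60 CPM (log2 1.09, SE 0.21, edgeR adjusted p 0.00739). The kinase gene Src (log2 0.42) and Igsf8 (0.38), an immunoglobulin partner of CD9 and CD81, also rose. Cav1, the caveolin of caveolae, rose (log2 0.32) and Ptk2, the focal adhesion kinase that EMP2 is reported to act through, fell (log2 −0.26). The calls of Cav1 and Ptk2 were each lost in 7 of the 9 fits that left out a library (Cav1 kept its call without AT2_Etv5KO 2 or 4, Ptk2 without AT2_control 2 or AT2_Etv5KO 2), with edgeR adjusted p up to 0.0743 and 0.098. Ptk2 did not pass with library size as the only scaling (0.116) or with no filter on low counts (0.0578). The main epithelial integrin genes Itga3 (log2 0.20), Itga6 (0.27), Itgb1 (0.13) and Itgb4 (0.64) did not pass, nor did Epcam (0.08). For Itga6 and Itgb1 the groups did not overlap, as for 12.1% of all genes tested. In AT2 cells 12 of the 20 had an unadjusted edgeR p under 0.05, and 16 had a log2 above 0. In lung none of the 20 passed with edgeR or DESeq2, and 3 had an unadjusted p under 0.05. The share of all genes with such an unadjusted p was not computed in either tissue.

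**Figure D4:**
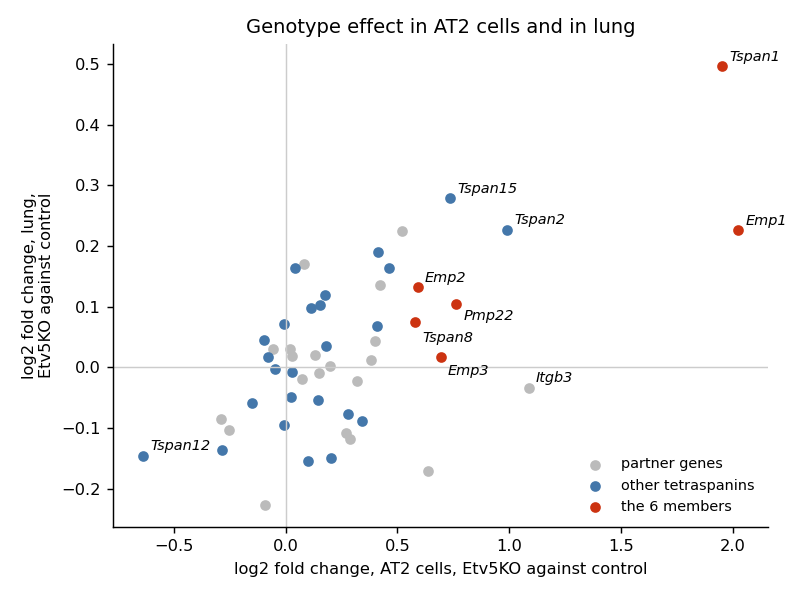
Log2 fold change of Etv5KO over control in AT2 cells (horizontal) and in lung (vertical) for the 6 genes (red), other tetraspanins tested in both (blue) and partner genes (grey); each point is a gene, with different scales on the axes. Emp1 and Tspan1 lie furthest to the right, at 2.02 and 1.95, and Tspan1 is also the highest, at 0.50 in lung.

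The genes whose pattern was nearest to each member were found by the root mean square difference of centred log2 CPM over the 19 libraries, among 12241 genes averaging 5 CPM or more. The nearest to Tspan8 was Adam10 (difference 0.11), which is also in the partner list, followed by Ctbs and Pqlc3 (both 0.15). The nearest to Tspan1 was Entpd3 (0.19), at 7.78, 30.5, 6.43 and 8.22 CPM in control AT2, Etv5KO AT2, control lung and Etv5KO lung, and then Cybrd1 (0.31) and Smoc2 (0.32). Near to Emp2 were Sfxn3 (0.12) and Myo1c (0.13). For Emp3 they were Gbp3 (0.21), Ets1 (0.22) and Rgs3 (0.23), and for Pmp22 Adamtsl5 (0.16), Agpat4 (0.19) and Mxra7 (0.20). Emp1 had no gene as close: its nearest were Vav3 (0.42), Glt8d2 (0.49) and Pdcd4 (0.49). The median difference over all genes was 1.48 for Emp1 and 0.49 for Tspan8.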

How the data were processed

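The authors deposited, for each library, a read count per Entrez gene, the number of reads aligned uniquely to its gene model per the file headers, and a size-factor-adjusted RPKM. GSNAP (version not given) and build mm9 are named in the submitters' processing notes; the sources used here give no annotation, counting tool or strand setting. Of 36528 IDs, 31049 were named from a RefSeq table of GRCm38.p6; promoter sequences and their coordinates are RefSeq's on that build, not mm9, and no protein sequences were used.

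Counts were tested with edgeR 4.0.16 in R 4.3.3 by the quasi-likelihood F test (two-sided, Benjamini-Hochberg over all genes tested, threshold 0.05) after filterByExpr (minimum count 10, minimum total 15) and TMM scaling. AT2 libraries, lung libraries and control libraries were fitted separately, and the difference of effects over all 19. DESeq2 1.42.0, other scalings, no filter on low counts, 1 joint fit and leaving out each library were alternatives. The fits were tested on simulated data. RPKM was used only to compare levels between genes. Library numbers follow accession order and carry no pairing; where separate mice are not stated, p-values measure the spread between libraries. The members, lists and motifs were chosen with earlier results of these data known. Named were the 6 members, up to 6 called genes of each related list with the smallest p (mean 5 CPM or more), the 5 most abundant tetraspanins of control AT2 cells, and the 3 genes of nearest pattern, of which an entry for Emp2 is not reported here; other list genes named as not past the threshold, and Tmem47 and Nkg7, were chosen after their values were seen. Replicates differed by more than sampling noise (chi-square per degree of freedom at least 7.81).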

Additional observations from a re-analysis of the deposited data

Results flagged for a closer look

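For 4 of the 6 genes the log2 genotype effect in AT2 cells minus that in lung is listed for a closer look because of the interaction term of the edgeR fit across all genes. The difference was 1.79 for Emp1, 0.45 for Emp2, 0.65 for Pmp22 and 1.44 for Tspan1. Of all 17698 genes tested, 1.59% were past the threshold for this term. All 5 Etv5KO AT2 libraries were above all control AT2 libraries for each of these genes, and in lung the groups overlapped for each. Over all genes tested, 6.39% were higher without overlap in AT2 cells, and 1.57% had no overlap in lung. The genes were proposed with the AT2 comparison known, which this difference contains, so the interaction term is no test of them and the values are a description. No library stood out from its group by Dixon's test in the 24 sets of 1 gene in 1 group.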

How the results depend on the processing

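For the 6 genes, the direction in AT2 cells, in the tissue difference and in the control tissue contrast was kept under all alternatives run, with 1 exception: Tspan1 between control tissues was −0.19 (log2) with library size as the only scaling. In lung, the log2 fold change of Emp3 changed sign when a library was left out (−0.0364 to 0.0885). The number of the 6 past the threshold was 5 to 6 in AT2 cells, 0 to 0 in lung, 5 to 5 between control tissues and 3 to 5 for the tissue difference when each library was left out. The count of all genes past the threshold was then 1062 to 1587, 44 to 80, 12038 to 12986 and 198 to 319. In lung, leaving out lung_control 3 or 4 gave 47 and 44 genes against 71. DESeq2 called 197 genes in lung and 467 for the tissue difference (282 with edgeR), and 1 fit of all libraries called 122 in lung. Scaled by library size alone, the share of calls that were higher was 65% in AT2 cells (50.9% with TMM) and 25.9% between control tissues (47.8%). With DESeq2 62.4% of lung calls were higher (49.3% with edgeR). In AT2 cells the value that moved past the threshold under alternatives was Emp3, with DESeq2, with 1 fit of all libraries, without AT2_control 2 and without AT2_Etv5KO 3; this is a description, since the contrast was known. Depth as a limit on Emp3 was not tested. No paired analysis was possible because the labels carry no replicate numbers and do not say which libraries share a mouse.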
